A study of Homo sapiens with 18 samples.

Results

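The replication-dependent histone genes supply the bulk histone proteins around which newly copied DNA is wound. They were taken here as the rows of the count tables whose symbol starts with HIST1H, HIST2H, HIST3H or HIST4H followed by the histone class, with rows named as pseudogenes by a number after PS left out. The family was chosen by its symbols, and taken up with measured fold changes of BDNF IgA already known. The rule found 76 of 55765 genes in each of 2 series of libraries, namely 6 genes of the linker histone H1, 17 of H2A, 23 of H2B, 15 of H3 and 15 of H4. Of these, 55 belong to the HIST1 group, 16 to HIST2, 4 to HIST3 and 1 to HIST4. The annotation lists 70 of them as protein-coding and 6 as pseudogenes.

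RNA was sequenced from OVCAR3 cells, an established line of high-grade serous ovarian cancer, in 6 groups of 3 libraries. In the first series cells received natural human IgA, natural human IgG or no antibody, and in the second series IgA against BDNF (a secreted neurotrophin), IgA against TSPAN7 (a tetraspanin of the cell membrane) or no antibody. All 6 groups were grown in RPMI medium with 2% fetal bovine serum, and the antibody was given at 0.5 µg/ml for 24 h by the protocol, although a shorter incubation is named elsewhere in the study's files. The 2 IgA antibodies of the second series came from immortalized B cells of ovarian tumours, whereas the antibodies of the first series had no chosen antigen. All libraries come from this single line. The labels do not say whether the 3 libraries of a group came from separate cultures. The study calls those of the first series experiments, and its replicates in general biological replicates or separate experiments. The p-values measure only the spread between these libraries. Values of the 2 series were never tested against each other.

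Most messenger RNAs end in a poly(A) tail, but those of replication-dependent histones end just after a short stem-loop. The stem-loop binding protein SLBP holds on to this hairpin during processing, export, translation and decay. Transcription rises at the start of S phase through NPAT, which is switched on by cyclin E with CDK2, and the messengers are degraded when DNA synthesis stops. The genes lie in clusters, are mostly without introns and often encode identical or nearly identical proteins. In proliferating tumour cells they are among the best known reporters of ongoing replication.

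The hairpin could be read for 67 members with an annotated coding transcript on GRCh37, and all 67 held a match to the pattern GGNNNTTNNNANNNCC within 150 bases of the stop codon. The pattern was loosened after windows of members without a match had been inspected, so the share of 67 of 67 rests partly on that choice. Among 19816 other coding genes 12 held a match (0.0606%), among them the histone genes H2AX and H3-7, which the rule leaves out. The match began 23 to 68 bases after the stop codon, with a median of 36. The sequences below, 5′ to 3′ in the sense of the messenger and in DNA letters, are shown because the hairpin sets this family apart from polyadenylated messengers. Capitals mark the 4-base loop between the arms of 6 bases.
39 members, among them HIST1H3C, HIST1H3J, HIST1H2BB, HIST1H1E and HIST2H3D: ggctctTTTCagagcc
9 members of class H4, among them HIST1H4C, HIST1H4E and HIST1H4J: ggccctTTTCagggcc
9 members, among them HIST1H1A, HIST1H2BD and HIST1H2BK: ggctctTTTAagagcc
HIST2H4A, HIST2H4B, HIST1H4I and HIST1H4K: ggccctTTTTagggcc
HIST1H4L: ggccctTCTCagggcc
HIST1H3E: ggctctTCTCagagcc
HIST1H2BI: ggctctTCTAagagcc
HIST1H2AG: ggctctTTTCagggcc
HIST2H2AC: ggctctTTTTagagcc
HIST1H2AK: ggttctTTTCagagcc
The stems of class H4 carried a different middle from those of the other classes, and HIST1H4L shared its stem with them and its loop with HIST1H3E. The hairpin of HIST1H4L lies on the minus strand of GRCh37 at chr6:27840931-27840946, in the exon of the gene at chr6:27840926-27841312, after the coding sequence. The hairpin of HIST1H1A lies on the minus strand at chr6:26017265-26017280, in the gene at chr6:26017260-26018015.

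Promoters, taken as 250 bases before to 50 after the start in RefSeq (GRCh38.p14) and searched on both strands, were given for 65 protein-coding members. The TATA box TATAAA was found in 43 of the 65 (66.2%) against 12.0% of all 27305 promoters. CCAAT was found in 55 (84.6%) against 35.7%, and it was present in all promoters of classes H1, H2A, H2B and H3 but in 3 of 13 of class H4. The octamer ATTTGCAT, the site of the factor OCT1 in histone promoters, was found in 26 (40.0%) against 1.8%. It was held by 11 of 16 H2A promoters and 14 of 18 H2B promoters, by 1 of 12 of H3, and by none of the 6 of H1 or the 13 of H4. Some H2A and H2B genes lie back to back and share promoter sequence, so 1 site can count for both. An example is HIST1H2BC, which starts at chr6:26124154 on the minus strand of GRCh37, with HIST1H2AC at chr6:26124373 on the plus strand. These are matches of letters and are given as a description.

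Libraries of the first series held between 27920733 and 42371474 counts, and those of the second between 39254350 and 47381836. The histone genes took 0.444% to 0.669% and 0.51% to 0.635% of them. The mitochondrial genome took 19.1% of the counts of IgA replicate 3 and 5.75% to 8.32% of the other IgA, IgG and matched untreated libraries. In the second series the share was 8.6% to 10.2%. RN7SK, a small nuclear RNA without a poly(A) tail, stood at 790600 normalised counts in IgA replicate 1, 131500 in IgA replicate 2 and 271400 in IgA replicate 3, and between 123000 and 163700 in the 6 other libraries of the first series. Replicates 1 and 3 of IgA thus stood apart from the rest. The 9 markers of serous epithelium summed to 4493 to 6417 CPM (counts per 1e6 counts of the library) and to 4294 to 5908 CPM in the 2 series. The 8 markers of other cell types (leukocytes, stroma, endothelium and liver) present in the tables summed to 64.5 to 111.2 and 68.09 to 91.29 CPM. COL1A1 and COL1A2 stood highest, at 631.9 to 1316 and 1421 to 3534 normalised counts in the first series. None of the other markers exceeded 55.96 there, and CD3E was at 3 or fewer counts in every library.

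The messages of few members made up most of the signal. HIST1H1E, HIST2H2BE, HIST1H2BK, HIST1H1C and HIST2H2BF together held 40.2% to 51.0% of all histone counts with IgA, IgG and their controls, and 39.0% to 44.1% in the second series. Mean levels reached 10 CPM in 47 members of the first series and 51 of the second, and stayed under 1 CPM in 18 and 17. Per kilobase of transcript, HIST1H2BK was highest in the first series at 1140 CPM, followed by HIST1H1E, which encodes the linker histone H1.4, at 1020. In the second series HIST1H1E led at 920 and HIST1H2BK followed at 851. The leading gene of H2A was HIST1H2AG (348 and 408 CPM per kilobase in the 2 series) and that of H4 was HIST1H4E (332 and 384). For H3 it was HIST1H3B in the first series (279) and HIST1H3C in the second (358). HIST2H2BE, whose long transcript is known to be polyadenylated as well, stood at 571 and 561 CPM but at 257 and 252 per kilobase. Levels per kilobase use the length of 1 annotated transcript, 2224 bases for HIST2H2BE and 495 for HIST1H2BK. The order of members per kilobase thus rests partly on which form is annotated.

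The testis histones were near the floor. The maximum over libraries of the first and the second series was 7 and 2 counts for HIST3H3, 4 and 1 for HIST1H2AA, and 6 and 3 for HIST1H2BA. HIST1H1T, the testis linker histone, passed the filter with 17.57 to 44.23 normalised counts in the first series. HIST1H4G had no count in any of the 18 libraries, which allows up to 3 counts in each. The filter left 66 members to test in the first series. It left 67 in the second. The others were HIST2H3DP1, HIST2H2BB, HIST2H3C, HIST3H3, HIST1H2AA, HIST1H2BA, HIST1H2AD, HIST1H4F and HIST1H4G in both series, and HIST1H2BE in the first. The filter asks for enough counts in a group's worth of libraries, so the members tested are not all members.

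Reads were counted where they aligned to a single place, so members with near-identical copies may lose reads or be split. Of 71 members whose exons could be compared, 40 shared no 75-base window with another place in the GRCh37 genome, 18 shared more than 20% of their windows, and 6 (HIST2H4A, HIST2H4B, HIST2H3A, HIST2H3C, HIST2H2AA3 and HIST2H2AA4) shared all of them. Among genes named below, the share was 91.43% for HIST1H4J, 87.59% for HIST2H3D and 41.09% for HIST1H2BK, and 0 for HIST1H3C, HIST1H2BB, HIST1H4L, HIST1H1A and HIST1H3A. HIST2H2BF, one of the most abundant members, shared 74.3% of its windows. In addition 16 members share exons with another annotated gene, HIST2H2BF with FCGR1A among them. No source names a strand setting for the counting. HIST1H3J overlaps HIST1H2AM, which had no more than 29.14 normalised counts in any library of the first series.

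**Figure D1:**
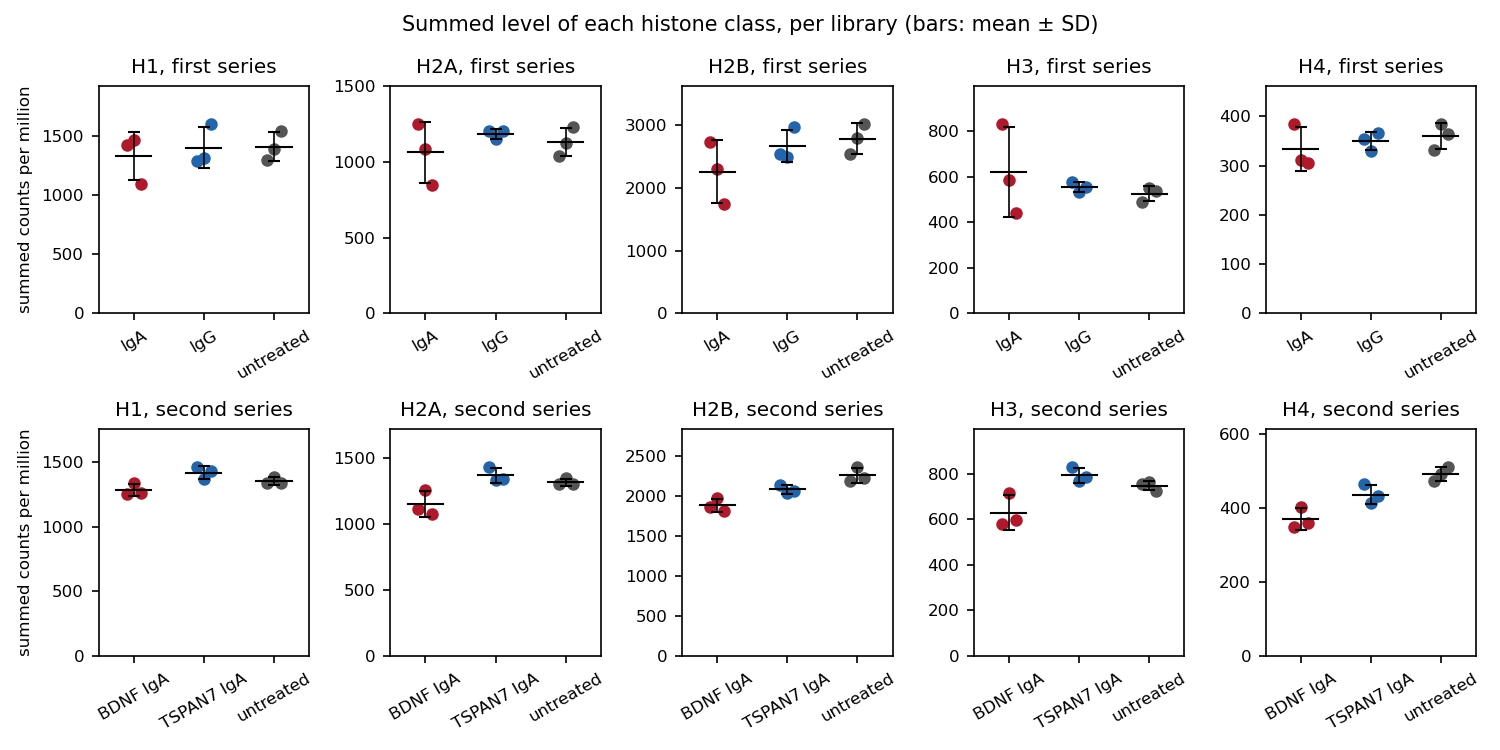
Summed level of each histone class in every library, in CPM, for the first series (top) and the second (bottom), with points for libraries and bars for the mean ± SD of 3. The H3 sum of the IgA libraries ranged from 442.4 to 831.9 CPM while those of IgG and untreated cells lay between 487.3 and 577.5, and in the second series the 3 BDNF IgA libraries were below both other groups in classes H2A, H2B, H3 and H4.

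The first comparison asked what IgA, which these cells take up through the polymeric immunoglobulin receptor, changed relative to IgG. Of 66 members tested, 14 (21.2%) were higher with IgA and 7 (10.6%) lower (edgeR, Benjamini-Hochberg adjusted p under 0.05), while 12.6% and 11.6% of all 18012 genes tested were called in these directions. The share lower was thus near that of all genes, and 45 members were not called. The members called were 1 of H1, 2 of H2A, 4 of H2B, 3 of H3 and 4 of H4 on the higher side, and 2 of H2A, 2 of H2B, 2 of H3 and 1 of H4 on the lower. Groups did not overlap for 15 members above and 13 below, as for 19.7% and 20.6% of all genes. The median log2 fold change over the members was 0.04, against -0.01 over all genes. With library size as the only scaling there were 10 higher and 12 lower and a median of -0.19, and it shifted the median of all genes to -0.25.

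HIST1H3C, which encodes H3.1, was at 8137, 4483 and 4930 normalised counts in the 3 IgA libraries. The IgG libraries had 2825, 2030 and 1506 and the untreated libraries 1740, 2540 and 1398, so the IgA libraries lay above all 6 others. Its mean was 2.76-fold that of IgG (1.46 ± 0.27 SE on the log2 scale, edgeR adjusted p = 0.00221) and 3.09-fold over untreated cells (1.63 ± 0.27, edgeR adjusted p = 0.00107). HIST1H2BB, an H2B gene close to it on the chromosome, had 1294, 754.5 and 818.3 in IgA, 444.3, 290.4 and 250.3 in IgG and 260.6, 346.4 and 203.0 in untreated cells. Its IgA libraries did not overlap with the others, and it rose by 1.54 ± 0.26 over IgG (edgeR adjusted p = 0.00138) and by 1.82 ± 0.27 over untreated cells (edgeR adjusted p = 0.000442) on the log2 scale.

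HIST1H4J had the largest fold over IgG on the log2 scale, 1.77 ± 0.52 (edgeR adjusted p = 0.0253), at low counts. It stood at 76.24, 23.98 and 115.3 in IgA, 17.73, 18.21 and 26.35 in IgG and 19.73, 27.74 and 20.14 in untreated cells, so IgA replicate 2 lay among the others. Its call ended when either IgA replicate 1, IgA replicate 3 or any IgG library was left out, with edgeR adjusted p from 0.0527 to 0.09 and from 0.0022 to 0.09 over all 17 alternatives.

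On the lower side, HIST2H3D, a gene for H3.2, had 467.5, 641.5 and 195.9 normalised counts in IgA, 927.7, 962.4 and 1087 in IgG and 819.2, 954.3 and 1075 in untreated cells. All IgA libraries were below the rest, and it fell to 0.443-fold of IgG (-1.17 ± 0.29 on the log2 scale, edgeR adjusted p = 0.0106). HIST1H3A, another H3.1 gene, had 348.7, 562.6 and 137.4 in IgA against 690.1 to 788.7 in IgG and 678.5 to 816.9 in untreated cells. Its log2 fold change against IgG was -1.08 ± 0.32 (edgeR adjusted p = 0.0281), a call that was lost when IgA replicate 1 or any IgG library was left out (edgeR adjusted p from 0.058 to 0.0778, with 0.0778 the highest of 17 alternatives). HIST3H2A, an H2A gene of the HIST3 group on chromosome 1, had 417.1, 649.5 and 445.5 in IgA against 920.5 to 1061 in IgG and 842.0 to 1081 in untreated cells. It fell by 0.96 ± 0.17 on the log2 scale against IgG (edgeR adjusted p = 0.00153) and kept its call in all 17 alternatives. H3.1 genes thus stood on both sides, with HIST1H3C, HIST1H3I and HIST1H3J higher and HIST1H3A lower.

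None of the most abundant members passed the test. HIST1H1E had 30586, 31455 and 26865 normalised counts in IgA and 24459, 25238 and 31502 in IgG, with overlapping groups (log2 fold change 0.13 ± 0.12, edgeR adjusted p = 0.468). The values for HIST1H2BK (-0.07 ± 0.12, edgeR adjusted p = 0.717), HIST1H2AG (0.14 ± 0.13, 0.49), HIST1H4E (0.16 ± 0.21, 0.615) and HIST1H1C (0.05 ± 0.13, 0.796) were also within the spread of the libraries. HIST1H3B had 9001 in IgA replicate 1 but 5207 and 4436 in the others, against 4378 to 4815 in IgG (0.45 ± 0.20, edgeR adjusted p = 0.115), and it passed without IgA replicate 3 (0.64, edgeR adjusted p = 0.0124) but was at 0.08 without IgA replicate 1 (edgeR adjusted p = 0.638), with 0.00297 to 0.638 over all 17 alternatives.

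Against untreated cells, which share the IgA libraries with the comparison above, 15 members were higher with IgA and 11 lower, with 12.9% and 12.1% of all genes called in these directions. The median was 0.05, against -0.01 over all genes. Of these calls 13 higher and 7 lower members were also called against IgG. By class, 2 of 6 H1 genes were higher, 2 of 15 H2A genes higher and 3 lower, 3 of 20 H2B genes higher and 3 lower, 3 of 12 H3 genes higher and 3 lower, and 5 of 13 H4 genes higher and 2 lower. Groups did not overlap for 14 members above and 13 below (19.8% and 20.1% of all genes). Scaling by library size gave 10 higher and 13 lower, with a median of -0.17 and one of -0.22 over all genes.

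HIST1H3J, an H3.1 gene at chr6:27858093-27860884 (GRCh37, minus strand), had the largest rise, 3.73-fold (log2 fold change 1.90 ± 0.27, edgeR adjusted p = 0.000369). It was at 691.8, 430.7 and 715.6 normalised counts in IgA and at 151.6, 201.8 and 137.8 in untreated cells, with IgG at 315.5, 188.5 and 166.9. Every IgA library was above every other one. HIST1H4L, an H4 gene, had 358.8, 630.6 and 568.7 in IgA against 206.6, 331.3 and 146.6 in untreated cells, and it rose by 1.19 ± 0.31 on the log2 scale (edgeR adjusted p = 0.0142). Without untreated replicate 1 or 3 the adjusted p was 0.0603 and 0.0658 (edgeR), the latter the highest of 17 alternatives. HIST1H1A, the H1.1 gene, had 88.58, 90.94 and 159.5 against 120.4, 122.8 and 76.54 (0.07 ± 0.31, edgeR adjusted p = 0.889), with overlapping groups.

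HIST1H3E, the lowest together with HIST2H3D, had few counts, 35.88, 51.96 and 15.80 in IgA against 69.56, 78.19 and 81.37 in untreated cells (-1.11 ± 0.36, edgeR adjusted p = 0.0406). It lost its call when any library of the first series apart from IgA replicate 2 was left out, with edgeR adjusted p from 0.0522 to 0.113. HIST2H3D fell by 1.11 ± 0.29 (edgeR adjusted p = 0.0135, and 0.0561 without untreated replicate 3, the highest of 17 alternatives). HIST1H3A had a value of -1.05 ± 0.32 (edgeR adjusted p = 0.0306), with adjusted p from 0.0609 to 0.0996 when IgA replicate 1 or any untreated library was left out. HIST1H4J was at 1.65 ± 0.51 (edgeR adjusted p = 0.032, and from 0.0628 to 0.113 without IgA replicate 1, IgA replicate 3 or any untreated library). HIST3H2A was also lower than in untreated cells (-0.95 ± 0.17, edgeR adjusted p = 0.00146).

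The count of calls leaned on single libraries. The share of all genes called is not given for these fits, so a change common to all genes cannot be told apart. Without IgA replicate 1, which had the highest RN7SK level, 10 members were higher and 9 lower than with IgG, and 9 and 9 against untreated cells. Without IgA replicate 3, which had the highest mitochondrial share, the counts were 15 and 7, and 17 and 9. Leaving out IgG replicate 2 gave 8 higher and 4 lower against IgG, and leaving out IgG replicate 3 gave 9 and 4. Against untreated cells, the counts were 7 and 8 when untreated replicate 1 was omitted, 13 and 6 when replicate 2 was, and 8 and 5 when replicate 3 was. The common dispersion, a measure of the spread between replicates, was 0.0307 for the libraries used here and 0.00303 for those of the second series.

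No difference between IgG and untreated cells was detectable in this family. No member was called in either direction by edgeR or by DESeq2, none had an unadjusted p under 0.05, and 0% of all genes were called. Of all genes 0.494% had an unadjusted p under 0.05. The spread of each gene was estimated over all 9 libraries of the series, IgA included. Replicates of IgA differed most, at 67 to 232 chi-square per degree of freedom, against 6.6 to 25 within IgG and untreated cells. The test of IgG thus carried the spread of IgA and could miss small differences. No gene named by rule gained a call in any of 17 alternatives, the 6 compared libraries alone among them. Groups did not overlap for 1 member above and 1 below (3.32% and 3.43% of all genes). The median over members was 0.01. The largest values were 0.76 ± 0.54 for HIST1H2AM, at 10.38 to 29.14 normalised counts in these 6 libraries, and -0.38 ± 0.23 for HIST1H4A (both edgeR adjusted p = 1.0). HIST1H3C had a value of 0.17 ± 0.27 and HIST1H1E one of -0.07 ± 0.12.

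**Figure D2:**
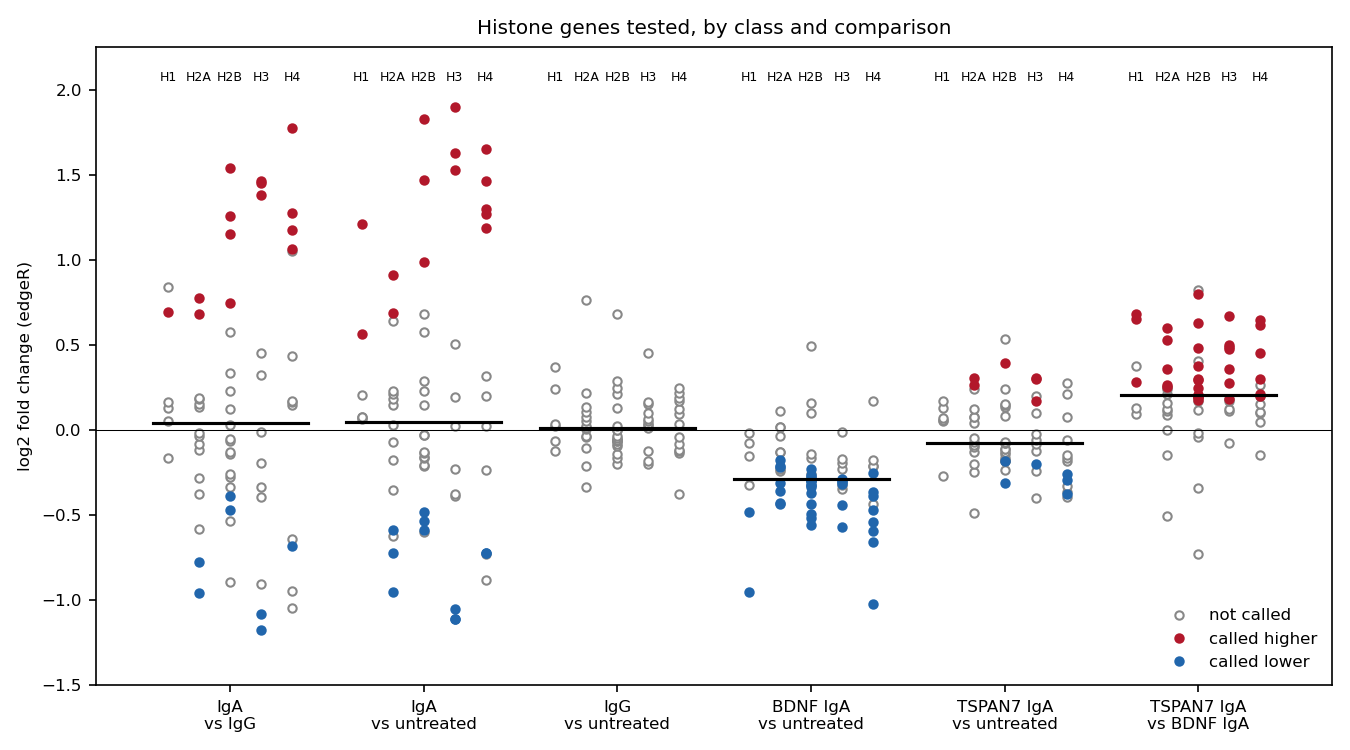
Log2 fold changes (edgeR) of all members tested, for 6 comparisons along the x axis and the 5 histone classes within each, with filled points for called members and a black line at the median. IgA spread the members from -1.17 to 1.90, IgG left them without a call, and with BDNF IgA the 37 called members all lay below 0.

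Members called with IgA are described next by their place along the genome. The blocks were drawn from gaps between positions after the values had been seen, so their counts are a description, to be read beside the 12.9% of all genes called higher and the 12.1% called lower. In the block at chr6:27775257-27861669 (GRCh37), 9 of 16 members tested were higher and 1 lower than in untreated cells, with a median log2 fold change of 0.80. It holds HIST1H3J, HIST1H3I, HIST1H2BM, HIST1H4J, HIST1H4L and HIST1H1B. The larger block at chr6:26017260-26285866 had 5 higher and 6 lower of 26, with a median of 0.14, and neighbours there differed. HIST1H3A and HIST1H4B were lower while HIST1H2BB and HIST1H3C were higher. All 13 tested members of HIST2 had log2 fold changes below 0, of which 2, HIST2H3D and HIST2H2BE, were called. By exons, 13 of 49 members annotated with a single exon were higher and 8 lower, and 2 and 3 of 15 with more.

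**Figure D3:**
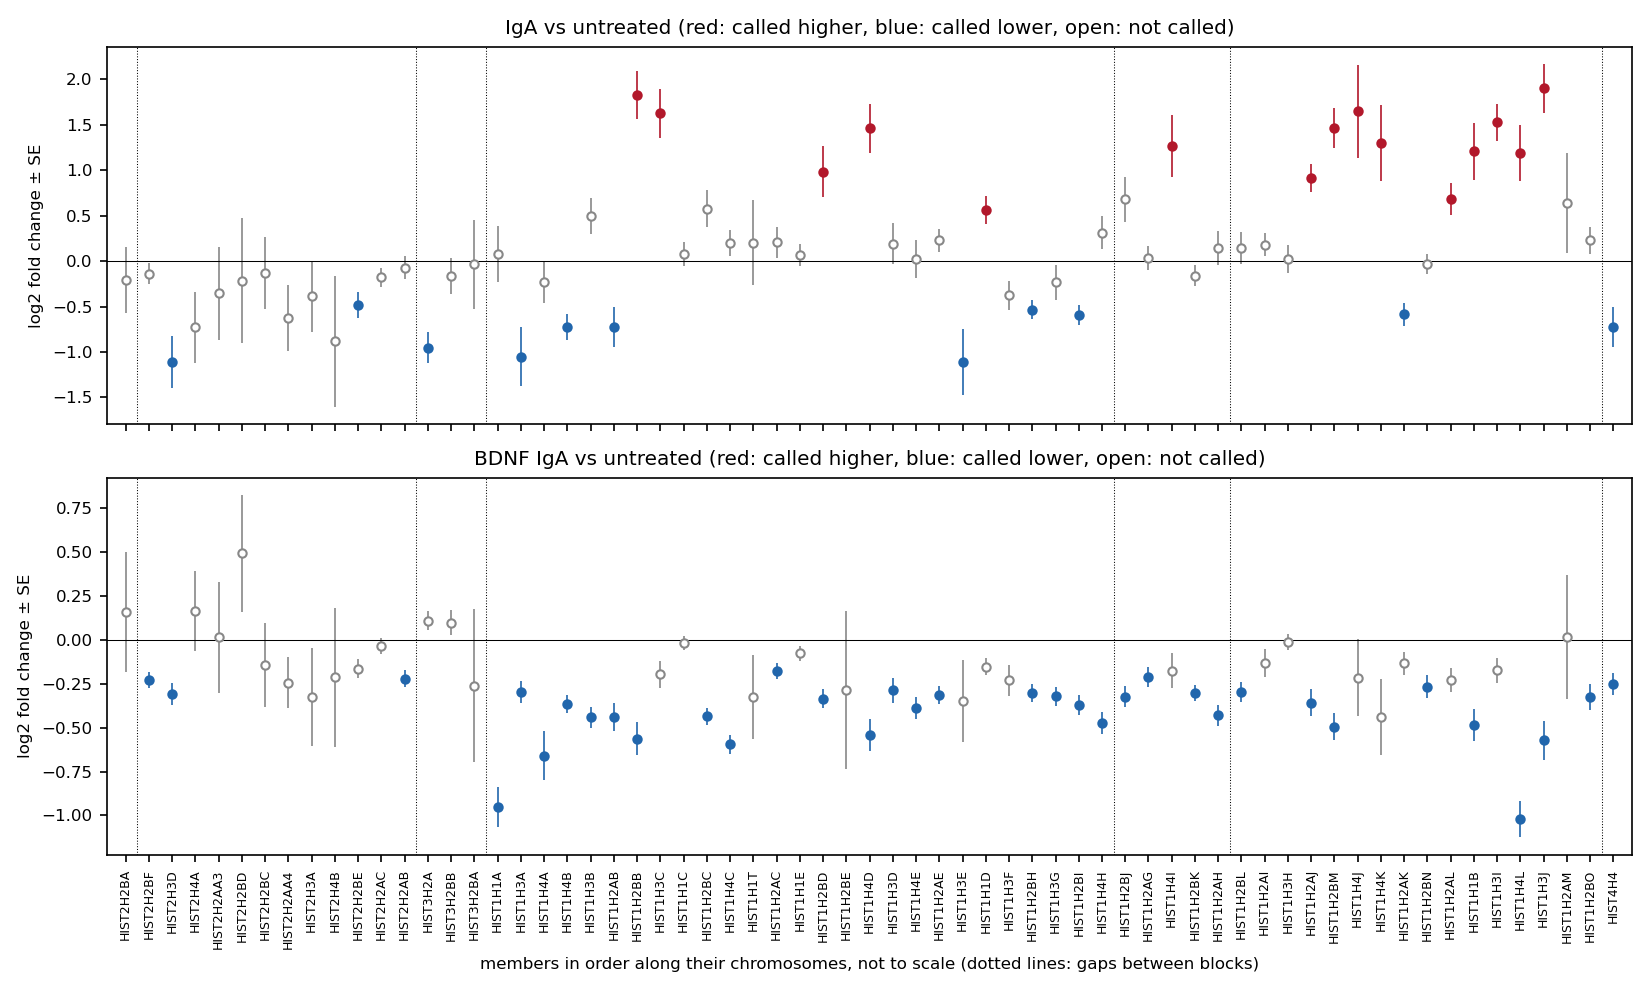
Log2 fold changes ± SE of members in their order along the chromosomes, not to scale, for IgA against untreated cells (top) and BDNF IgA against untreated cells (bottom). With IgA, 9 of the 16 members in the last block of chromosome 6 were called higher and the HIST2 block had no member called higher, whereas with BDNF IgA every called member shown was lower.

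The 5 members known to give polyadenylated transcripts as well as stem-loop ones had calls in both directions. HIST1H2BD was higher with IgA, with 8953, 3019 and 4219 normalised counts against 2505, 2174 and 2619 with IgG and 2540, 2804 and 2835 in untreated cells. Its log2 fold change was 1.15 ± 0.28 against IgG (edgeR adjusted p = 0.011) and 0.98 ± 0.28 against untreated cells (edgeR adjusted p = 0.0223), although IgA replicate 1 carried most of it. Without that library the value was 0.57 against IgG, where it stayed called, but the call against IgG was lost without IgG replicate 2 (edgeR adjusted p = 0.0501, the highest of 17 alternatives). Without IgA replicate 1 the value was 0.40 against untreated cells (edgeR adjusted p = 0.0629), and the call was also lost without any untreated library (up to 0.0815, the highest of 17 alternatives). HIST2H2BE was lower than in untreated cells (-0.48 ± 0.15, edgeR adjusted p = 0.0289) with 15927, 18162 and 14779 counts against 19257, 23315 and 25688. Its call was lost without IgA replicate 1 or 3 or untreated replicate 2 or 3 (edgeR adjusted p from 0.0552 to 0.126). HIST1H1C, HIST1H2AC and HIST1H2BK passed in neither comparison.

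Other genes of the family's life cycle were called with IgA in numbers to be read beside the 12.9% of all genes called higher and the 12.1% called lower against untreated cells. Of 16 genes for histone transcription and 3′ end processing, CDK2, the kinase that acts with cyclin E, was higher (0.52 ± 0.15 against untreated cells, edgeR adjusted p = 0.0242) and CCNE1, which encodes cyclin E1, was lower (-0.68 ± 0.20, edgeR adjusted p = 0.0232). SLBP had 1954, 2340 and 1907 normalised counts in IgA against 2187, 2099 and 1766 in untreated cells (0.04 ± 0.13, edgeR adjusted p = 0.867), and NPAT 615.5, 909.4 and 780.3 against 954.2, 950.1 and 804.8 (-0.23 ± 0.14, edgeR adjusted p = 0.254). Of 7 decay genes, DCP2, the decapping enzyme, was lower (-0.72 ± 0.11, edgeR adjusted p = 0.000676) and ZCCHC6, a uridylyl transferase, higher (0.49 ± 0.13, edgeR adjusted p = 0.0142). HIRA, the chaperone that places H3.3 outside replication, was the 1 chaperone of 13 lower than in untreated cells (-1.01 ± 0.22, edgeR adjusted p = 0.00562), while SSRP1 and NAP1L1 were higher. Among 11 replication-independent histones tested, H1F0, the linker histone of resting cells, was lower (-0.75 ± 0.20, edgeR adjusted p = 0.0148), but not without untreated replicate 3 (-0.54, edgeR adjusted p = 0.0829, the highest of 17 alternatives).

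Of 22 S phase genes, CDC6 (0.55 ± 0.15, edgeR adjusted p = 0.018) and GINS1 (0.69 ± 0.19, edgeR adjusted p = 0.0202) were higher than in untreated cells, and 15 of the 22 had values above 0, with a median of 0.10. Among 8 other RNAs without a poly(A) tail, RN7SK (1.42 ± 0.44, edgeR adjusted p = 0.0318), RN7SL2 (1.17 ± 0.28, edgeR adjusted p = 0.0101) and SCARNA2 (1.41 ± 0.31, edgeR adjusted p = 0.00567) were higher, and all 8 had values above 0. The list summed to 61830, 36620 and 50430 CPM in IgA, 37530 to 42210 in IgG and 34530 to 49620 in untreated cells. Of 5 tested markers of other cell types, COL1A1 and COL1A2 were called higher than with IgG (0.64 and 0.66), while 2 of the 5 had values below 0. Against untreated cells none of the 5 was called by edgeR (2 had an unadjusted p under 0.05). The part of these RNAs in the histone result was not tested.

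The second series asked what tumour-derived IgA with a defined antigen changed. HIST1H4L and HIST1H1A were known to be among the largest decreases with BDNF IgA when this family was taken up, so its values in that comparison, and in the comparison of both antibodies, are given as a description. Counts of calls are printed there to describe the members, beside the share of all genes, and serve as no test of the family. Of 67 members, 60 had log2 fold changes below 0 with BDNF IgA and 37 were called lower by edgeR, with 3.18% of all 18732 genes called lower and 4.49% higher. The count of members called higher was 0, also by DESeq2, and none above 0 had an unadjusted p under 0.05. The median was -0.29 against 0.00 over all genes. Lower members were 2 of 6 in H1, 7 of 15 in H2A, 14 of 21 in H2B, 6 of 12 in H3 and 8 of 13 in H4. For 41 members all BDNF IgA libraries were below all untreated ones (12.0% of all genes).

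HIST1H4L had 443.6, 594.3 and 396.3 normalised counts with BDNF IgA against 957.3, 1004 and 949.1 in untreated cells, a fold of 0.492 (log2 fold change -1.02 ± 0.10 SE). HIST1H1A had 461.8, 644.3 and 530.3 against 1085, 1201 and 888.6 (-0.95 ± 0.11). In both genes the groups were clearly apart and BDNF IgA replicate 2 was the highest of its group. HIST1H4A, an H4 gene close to HIST1H3A, had 204.1, 191.8 and 237.6 against 291.7, 342.9 and 365.7 (-0.66 ± 0.14).

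The other changes were smaller. HIST1H4C had 1779, 2120 and 1979 against 2930, 3029 and 2926 (-0.60 ± 0.06), HIST1H3J 535.5, 753.1 and 562.6 against 1055, 932.6 and 769.4 (-0.57 ± 0.11) and HIST1H2BB 605.3, 783.1 and 558.8 against 944.1, 1019 and 911.2 (-0.56 ± 0.09). The least lowered of the called members that met the level for naming were HIST1H2AC at -0.18 ± 0.05, HIST1H2AG at -0.21 ± 0.06 and HIST2H2AB at -0.22 ± 0.05. The abundant H1 genes stayed close to untreated cells, HIST1H1E with 29233, 29983 and 28625 against 30124, 31901 and 30497 (-0.07 ± 0.04) and HIST1H1C at -0.02 ± 0.04. The same was true of HIST3H2A (0.11 ± 0.06) and HIST3H2BB (0.10 ± 0.07).

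**Figure D4:**
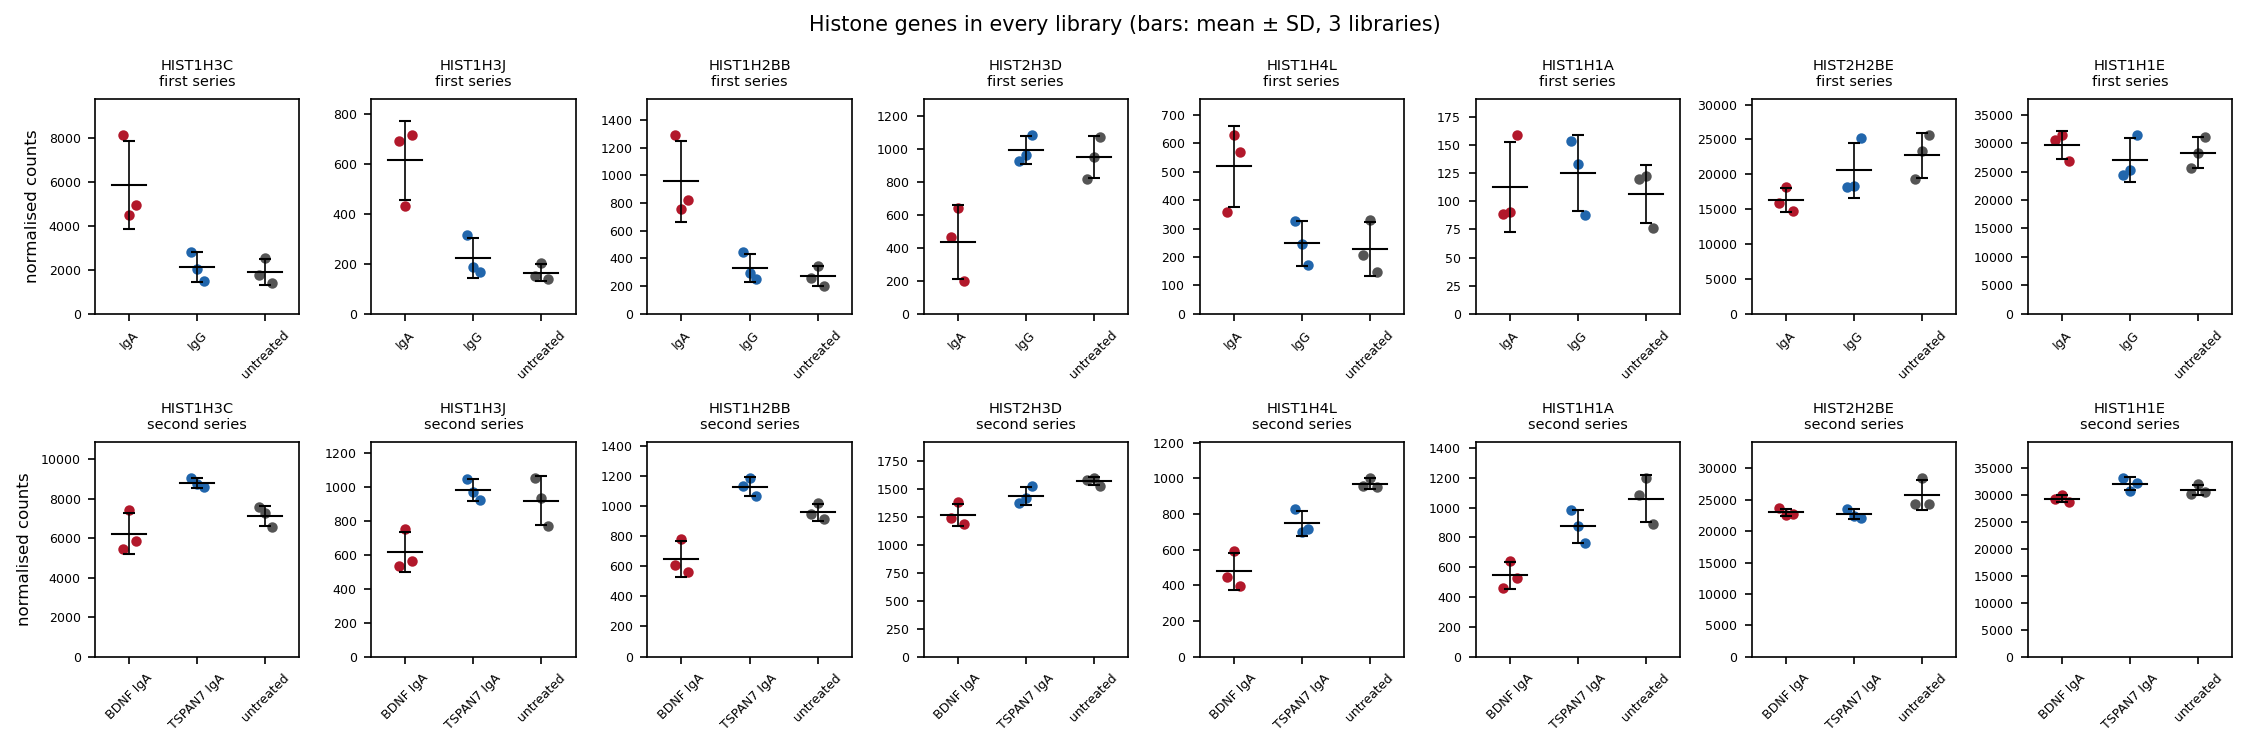
Normalised counts of 8 histone genes in every library, with the first series on top, the second below, and bars for the mean ± SD of 3 libraries on linear axes that start at 0. HIST1H4L lay at 358.8 to 630.6 with IgA against 146.6 to 331.3 in untreated cells of the first series, and at 396.3 to 594.3 with BDNF IgA against 949.1 to 1004 in untreated cells of the second.

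By library the median member was 0.36, 0.17 and 0.35 below the untreated mean on the log2 scale in BDNF IgA replicates 1 to 3, with 62, 52 and 58 of 67 members below it. In TSPAN7 IgA the members below the mean numbered 37, 41 and 38. The decrease was found across the HIST1 blocks, with 19 of 27 members lower at chr6:26017260-26285866, 4 of 5 at chr6:27093676-27115341 and 8 of 16 at chr6:27775257-27861669. In HIST2 3 of 13 were lower and in HIST3 none of 3. The sum over the 71 members other than the 5 with known polyadenylated forms was 3646, 4120 and 3602 CPM with BDNF IgA against 4403 to 4578 in untreated cells. The sum over those 5 was 1514, 1565 and 1497 against 1643 to 1777, and 3 of the 5 (HIST1H2AC, HIST1H2BD and HIST1H2BK) were called lower. Of the members with at most 20% repeated windows, 31 of 48 were lower.

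Of 22 S phase genes, 4 were called lower and 0 higher (edgeR) and the others were not called. Calls of this and the next lists are to be read beside the 3.18% of all genes called lower and the 4.49% called higher. The list summed to 1503, 1783 and 1436 CPM with BDNF IgA against 1729 to 1788 in untreated cells, with a median log2 fold change of -0.14. The 4 were RRM2, a subunit of ribonucleotide reductase (-0.31 ± 0.07), GINS4 of the replicative helicase (-0.32 ± 0.08), FEN1, which trims Okazaki fragments (-0.38 ± 0.07) and TYMS, thymidylate synthase (-0.27 ± 0.06). BDNF IgA replicate 2, at 1783 CPM, lay within the range of the untreated libraries for S phase genes, while its sum over the 71 histone genes, 4120 CPM, lay below theirs. SLBP had 2876, 2974 and 2640 normalised counts against 2940, 2768 and 2914 (-0.02 ± 0.05), and NPAT was at 0.00 ± 0.06. Of 16 transcription and processing genes CSTF2 was lower (-0.22 ± 0.06), and of 13 chaperones ASF1B (-0.25 ± 0.06) and HIRA (-0.22 ± 0.06). Among replication-independent histones CENPA, H2AFV and H2AFX were called lower and H1F0 higher (0.22 ± 0.06), although H1F0 lost its call in 7 of 17 alternatives, among them those without BDNF IgA replicate 1 or 3 or any untreated library. None of the 8 other RNAs without a poly(A) tail was called by edgeR (2 had an unadjusted p under 0.05). Of the 9 epithelial markers all had values above 0 and PAX8, KRT7, MSLN and CDH1 were called higher, and their sum was 5668, 4925 and 5908 CPM with BDNF IgA, 4294 to 4456 with TSPAN7 IgA and 4774 to 5152 in untreated cells. BDNF IgA replicates 1 and 3, with the lowest histone sums, thus had the highest sums of these markers. Of the 5 tested markers of other cell types none was called by edgeR (3 had an unadjusted p under 0.05). The part of S phase and of these markers in the histone values was not tested, and in bulk RNA fewer cells in S phase and less histone RNA per cell cannot be told apart.

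**Figure D5:**
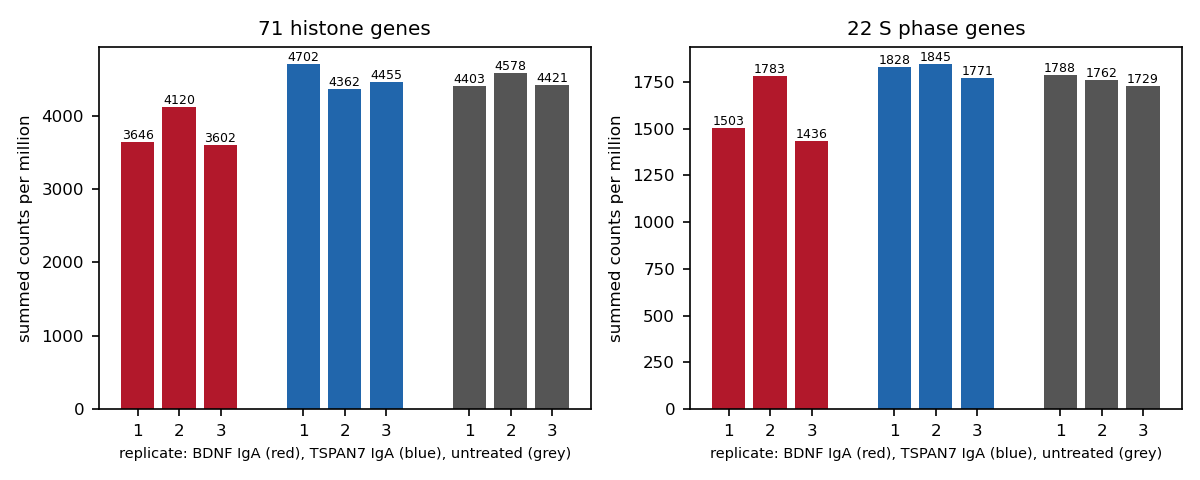
Sums over 71 histone genes (left) and 22 S phase genes (right) in each library of the second series, in CPM, with a bar per library from 0 upward. BDNF IgA replicates 1 and 3 had 3646 and 3602 CPM of histone and 1503 and 1436 CPM of S phase messages, below all 6 libraries of the other groups, while BDNF IgA replicate 2 had 4120 and 1783 CPM.

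With TSPAN7 IgA, a comparison that uses the same untreated libraries as the one above, 6 members were higher and 6 lower of 67, while 4.46% and 4.08% of all genes were called in these directions. The median was -0.08 against 0.00 over all genes. Higher were 2 of H2A, 1 of H2B and 3 of H3, and lower 2 of H2B, 1 of H3 and 3 of H4. Groups did not overlap for 16 members above and 17 below (14.4% and 14.0% of all genes). These counts moved with the fit, since 11 members were higher and 16 lower when the 6 compared libraries alone were used and 11 and 15 without BDNF IgA replicate 2. Without TSPAN7 IgA replicate 1 there were 3 and 8, without TSPAN7 IgA replicate 2 there were 4 and 2. Removing untreated replicate 2 gave 6 and 2, and removing untreated replicate 3 gave 3 and 5. The counts were 5 and 2 without TSPAN7 IgA replicate 3 and 8 and 12 without BDNF IgA replicate 3. Shares of all genes called are not given for these fits, so the shifts may be common to all genes.

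HIST3H2BB, an H2B gene on chromosome 1, rose most, with 1091, 1015 and 1054 normalised counts against 833.7, 848.6 and 725.1 in untreated cells (log2 fold change 0.39 ± 0.07, edgeR adjusted p = 0.00126). The groups were apart, and its partner HIST3H2A also rose (0.26 ± 0.05, edgeR adjusted p = 0.00354). HIST1H3C had 9064, 8716 and 8600 against 7562, 7265 and 6578 (0.30 ± 0.08, edgeR adjusted p = 0.0147), and missed the threshold when TSPAN7 IgA replicate 1 or 2 or untreated replicate 3 was removed and with DESeq2 (adjusted p from 0.0558 to 0.0989, the last the highest of 17 alternatives). HIST1H2AL had 5300, 5667 and 5853 against 4480, 4857 and 4312 (0.30 ± 0.07, edgeR adjusted p = 0.00813), and it missed the threshold without TSPAN7 IgA replicate 3 or untreated replicate 3 (0.0514 and 0.0561, the latter the highest of 17 alternatives).

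HIST1H4L had 825.9, 700.9 and 715.6 normalised counts with TSPAN7 IgA, below the 949.1 to 1004 of untreated cells. It fell by 0.38 ± 0.10 on the log2 scale. It was called lower by edgeR, but not when TSPAN7 IgA replicate 2 or 3 or any untreated library was left out. HIST1H4L and HIST1H1A were already known as large decreases with BDNF IgA against these same untreated libraries. Their values here are therefore a description. HIST1H2BF had 5208, 4634 and 4876 against 5764, 6183 and 6356 (-0.31 ± 0.06) and HIST1H4C 2503, 2379 and 2351 against 2930, 3029 and 2926 (-0.30 ± 0.06). Both were called lower by edgeR and kept their calls in all 17 alternatives. Both also lay below these same untreated libraries with BDNF IgA, HIST1H2BF at 4185, 4651 and 3926. Their values are therefore a description too. HIST1H1A had 980.6, 875.9 and 763.3, overlapping untreated cells (-0.27 ± 0.11), and was not called. HIST2H2BE, with 23548, 22443 and 22069 against 24365, 28539 and 24312, was called lower by edgeR, a call lost in 3 of 17 alternatives.

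Other genes called with TSPAN7 IgA are to be read beside the 4.46% of all genes called higher and the 4.08% called lower. CDK2 was the 1 of 16 transcription and processing genes called (0.25 ± 0.06, edgeR adjusted p = 0.0133). H3F3B, which encodes the replacement histone H3.3, was higher (0.17 ± 0.05, edgeR adjusted p = 0.0244, and up to 0.173 without TSPAN7 IgA replicate 2 or 3 or untreated replicate 1 or 2). Of 12 replication-independent histones tested, 1 was called higher and 2 lower. RFC3, part of the clamp loader, was the sole S phase gene of 22 called (0.22 ± 0.07, edgeR adjusted p = 0.0437) and CHAF1A the sole chaperone of 13 (0.23 ± 0.07, edgeR adjusted p = 0.0392). The share of S phase genes called higher, 4.55%, was thus near that of all genes. SLBP had 3117, 3295 and 3173 normalised counts against 2940, 2768 and 2914 (0.15 ± 0.05, edgeR adjusted p = 0.0675). DCP2 was lower (-0.18 ± 0.04, edgeR adjusted p = 0.00735), and so were RMRP and RPPH1 of the RNAs without a poly(A) tail.

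For TSPAN7 IgA set against BDNF IgA the values are again a description, and the counts of calls are no test of the family. Of 67 members 33 were called higher by edgeR (3.42% of all genes) and 0 lower (4.50% of all genes), with 1 member below 0 at an unadjusted p under 0.05 and 0 called lower by DESeq2. The median was 0.21 against 0.00 over all genes. The count fell to 21 without BDNF IgA replicate 3 or TSPAN7 IgA replicate 1 and to 22 without BDNF IgA replicate 1, and rose to 46 without BDNF IgA replicate 2, and the count at an adjusted p under 0.01 was 22. HIST1H2BB, with 1133, 1188 and 1064 against 605.3, 783.1 and 558.8, had the largest difference (0.80 ± 0.09), followed by HIST1H1A (0.68 ± 0.12) and HIST1H3J (0.67 ± 0.11). The smallest called differences were 0.17 ± 0.04 for HIST1H2BK, 0.18 ± 0.05 for HIST1H3H and 0.19 ± 0.05 for HIST1H2BH. Called members made up 15 of 27 at chr6:26017260-26285866, 5 of 5 at chr6:27093676-27115341 and 10 of 16 at chr6:27775257-27861669, while HIST2 had 0 of 13 (edgeR, 5 with an unadjusted p under 0.05). All 22 S phase genes had values above 0 and 10 of them were called, among them PCNA and MCM5, and 6 of 16 transcription and processing genes were called, SLBP (0.17 ± 0.05) and LSM10 (0.29 ± 0.08) included. SLBP lost its call in 8 of 17 alternatives, among them those without BDNF IgA replicate 1 or 3 or any TSPAN7 IgA library. H1F0 was called lower than with BDNF IgA and kept its call in all 17 (log2 fold change -0.456 to -0.300).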

How the data were processed

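The authors deposited raw counts per gene for 18 libraries of total RNA, made with a kit for degraded RNA that needs no poly(A) tail and sequenced as paired reads of 75 bases. The study's methods name STAR and featureCounts, whereas the submitters' processing notes name HTSeq 0.6.1, cutadapt 1.8.1 and hg19, and a strand setting is not given in the sources used here. The second table held 2055 exact repeats among 57820 rows, which were dropped. All 6 groups follow the labels, which name no batch. Replicates of each group differed beyond sampling noise (chi-square per degree of freedom at least 3.91), so each counted as 1.

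Members and gene lists were chosen with earlier results of these data known. Each series was fitted with all 9 libraries in edgeR 4.0.16 (R 4.3.3), with TMM scaling, its expression filter and the quasi-likelihood test, and p-values were adjusted by Benjamini-Hochberg over all genes tested. Normalised counts are counts divided by the effective library size and brought to a common depth, and SE is that of the log2 fold change. Named were, per comparison, the 3 called members at each end with a mean of at least 50 normalised counts in a group, the highest member per kilobase of each class, HIST1H4L, HIST1H1A, the 5 members with polyadenylated forms, the testis members, SLBP, NPAT, H1F0 and H3F3B. Not all of these are printed for every comparison. Other genes named were chosen after their values were seen, as called members of their list or of a class. Alternatives were DESeq2 1.42.0, other scalings, filters and thresholds, a replicate block, fewer libraries and members with little shared sequence. The fit was tested on simulated data. Reads carry no molecular identifiers, so intervals from counts would cover counting error alone. Positions and hairpins come from GENCODE on GRCh37, and 4 members had no position.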

Additional observations from a re-analysis of the deposited data

How the results depend on the processing

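With library size as the sole scaling, 12 members were lower with IgA than with IgG, and the member medians turned to -0.191 against IgG and -0.166 against untreated cells. Signs turned likewise against IgG for HIST1H1E (-0.094), HIST1H2AG (-0.094), HIST1H4E (-0.062), HIST1H1C (-0.175), HIST1H2AC (-0.051) and SLBP (-0.211), and against untreated cells for HIST1H1E (-0.135), HIST1H2AG (-0.17), HIST1H1C (-0.126), HIST1H2AC (-0.001) and SLBP (-0.164), none of them called. Without a filter, 11 members were lower against IgG, and 10 were higher and 13 lower with TSPAN7 IgA against untreated cells. DESeq2 gave 11 lower against IgG and 11 lower with TSPAN7 IgA. At an adjusted p under 0.01 there were 8 higher and 3 lower against IgG, 7 and 5 against untreated cells, and 2 lower with TSPAN7 IgA. With the 6 compared libraries alone, 7 were lower with IgA against untreated cells, and 11 were higher and 16 lower with TSPAN7 IgA. Members with at most 20% repeated windows had medians of -0.055 for TSPAN7 IgA against untreated cells and 0.264 against BDNF IgA. The cause was not tested. Shares of all genes called are given for the main fits alone. For every other fit, a change in calls common to all genes is not told apart from one of this family.

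When 1 library at a time was left out, members higher and lower numbered 8 to 18 and 4 to 10 for IgA against IgG (medians -0.059 to 0.082), 7 to 20 and 5 to 11 for IgA against untreated cells (-0.114 to 0.089), 0 and 0 for IgG (-0.066 without untreated replicate 1, to 0.053), 0 and 32 to 43 for BDNF IgA (-0.352 to -0.257), 3 to 11 and 2 to 15 for TSPAN7 IgA against untreated cells (-0.092 to -0.043) and 21 to 46 and 0 against BDNF IgA (0.183 to 0.263). Signs of genes that were not called turned without IgA replicate 1, against IgG for HIST1H2AG (-0.011 to 0.222), HIST1H4E (-0.229 to 0.342) and HIST1H2AC (-0.027 to 0.308), and against untreated cells for HIST1H2AG (-0.114 to 0.13), HIST1H4E (-0.366 to 0.205) and HIST1H2AC (-0.003 to 0.368). They also turned for HIST1H1A without IgA replicate 3 (-0.245 to 0.217, against untreated cells), for HIST1H1C without IgG replicate 3 (-0.108 to 0.129) and H1F0 without untreated replicate 3 (-0.329 to 0.143), both IgG against untreated cells, and for NPAT without BDNF IgA replicate 2 (-0.062 to 0.039).

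Replicate numbers gave little sign of pairing, since 1 of 18 correlations between same-numbered libraries was over 0.1 (range -0.0657 to 0.217). The highest was between replicates 3 of IgG and of untreated cells in the first series. Replicates 1 and 2 of these groups had 0.0477 and 0.0584, so pairing is least clear there. With a replicate block, 14 members were higher and 8 lower with IgA against IgG, 13 and 11 against untreated cells, 0 and 0 for IgG, 0 and 38 for BDNF IgA, 8 and 7 for TSPAN7 IgA against untreated cells and 36 and 0 against BDNF IgA. Over the 118 tests of named genes, 48 were called, of which 22 kept their call under all alternatives and 26 lost it under at least 1, and none of the 48 turned sign. Many of these genes were named because they were called, and the tally includes both comparisons given as a description. It therefore describes the named genes and is no test of the family. With 3 libraries a group, a dispersion about an order of magnitude higher in the first series than in the second and members that share sequence, small differences and near-identical copies are beyond what these counts can resolve.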
